A study of Mus musculus with 8 samples.

Results

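The YAP/TAZ-TEAD factors and targets are 10 mouse genes that were chosen by name, out of 41325 gene symbols in each of the 8 deposited tables. They comprise 3 factors, Yap1, Wwtr1 (which encodes TAZ) and Tead1, and 7 target genes, Cyr61, Ctgf, Ankrd1, Amotl2, Lats2, Axl and Crim1. All 10 symbols were found, and all 10 passed the filter on low values, an RPKM (mapped reads per kilobase of exon, scaled to the mapped reads of the library) above 1 in at least 1 of the 8 libraries. That filter kept 11513 genes of the whole table.

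The study used C3H10T1/2 cells, a mouse embryonic mesenchymal line that can form adipocytes, and asked whether the histone demethylase KDM4D, the transcription factor NFIB and the histone methyltransferase MLL1 are needed for that step. RNA was sequenced from a control line (shControl, wild type genotype) and from 3 lines that stably express a short hairpin RNA against Kdm4d (shKDM4D), Nfib (shNFIB) or Mll1, now named Kmt2a (shMLL1). The hairpin lines were isolated as puromycin-resistant clones after transfection, so a difference from shControl can also be a difference between clones, and these cannot be told apart. Each line was taken before induction, in confluent cells (day 0), and during differentiation (day 5), and every line and day is 1 library. All 4 lines received the same induction with insulin, dexamethasone and isobutylmethylxanthine in fetal bovine serum, then insulin alone, then serum medium.

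YAP1 and TAZ are transcriptional coactivators without a DNA-binding domain of their own. They are held in the cytoplasm when the Hippo kinases LATS1/2, which act downstream of MST1/2, phosphorylate them. YAP1 and TAZ enter the nucleus in spread, stretched or sparse cells, where they bind TEAD factors on DNA. In mesenchymal cells TAZ is known as a coactivator of RUNX2 and a corepressor of PPARG, and several of the target genes encode matrix or feedback proteins.

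The short DNA element that TEAD proteins read, GGAATG, or its reverse complement CATTCC, was searched in the RefSeq promoter entries of the members (build GRCm38.p6, 250 bases before to 50 after an annotated start site). 8 of the 10 members matched an entry by symbol or synonym. Tead1 and Ctgf had no entry. All 8 matched members held the 6 letters on either strand in at least 1 entry, against 16.6% of 27025 genes. Counted by entry, 9 of their 10 entries held the 6 letters, against 14.7% of 32851 promoter entries of the same length. The members were chosen by name as genes of this pathway, so the high share is a description and was not tested. Of the genes with an entry in the 3 pathway lists described further on, 6 of 18 Hippo kinases and scaffolds, 3 of 5 other TEAD and Vgll factors and 1 of 9 further target genes held the 6 letters. The sites are shown because each matched member carries one, which lets the RNA levels below be read beside the sequence. The capitals mark the 6 letters, and each sequence is written 5′ to 3′ along the strand of its gene.
Yap1, chr9:8004720-8004749, minus strand: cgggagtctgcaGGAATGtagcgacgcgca
Wwtr1, chr3:57576029-57576058, minus strand: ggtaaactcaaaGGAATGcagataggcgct
Ankrd1, distal site, chr19:36120037-36120066, minus strand: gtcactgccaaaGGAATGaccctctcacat
Ankrd1, proximal site, chr19:36119950-36119979, minus strand: gacactaagtctGGAATGaaaattcacctg
Amotl2, chr9:102717727-102717756, plus strand: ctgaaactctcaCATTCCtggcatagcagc
Lats2, chr14:57746102-57746131, minus strand: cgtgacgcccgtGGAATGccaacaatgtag
Axl, chr7:25788949-25788978, minus strand: ggaaattctacaGGAATGtttaccagaccc
Crim1, chr17:78200157-78200186, plus strand: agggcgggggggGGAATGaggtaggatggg

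For Cyr61 the 250 bases before the start site are given whole (chr3:145649986-145650235, minus strand), as this was the target with the clearest rise.
Cyr61: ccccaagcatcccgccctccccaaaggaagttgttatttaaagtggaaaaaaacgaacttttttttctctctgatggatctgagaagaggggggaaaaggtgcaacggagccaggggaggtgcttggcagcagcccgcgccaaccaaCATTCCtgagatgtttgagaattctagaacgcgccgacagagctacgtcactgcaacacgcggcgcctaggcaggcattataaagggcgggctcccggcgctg

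Counted from the start site to the 5′ base of the element along the gene, it lay at -141 in Yap1, at -103 in Cyr61 on the opposite strand, at -210 and -123 in Ankrd1, at -65 in Amotl2 on the opposite strand, at -233 in Axl and at -79 in Crim1. In Wwtr1 the same site lay at -136 and -170 from its 2 annotated start sites, and in Lats2 it lay at +4, within the transcribed part. By the GENCODE M21 annotation of the same build, the windows of Yap1, Wwtr1, Cyr61, Axl and Crim1 were outside the gene, whereas those of Ankrd1, Amotl2 and Lats2 overlapped an annotated exon of the gene. The AP-1 element, spelled TGACTCA on one strand and TGAGTCA on the other, often lies near TEAD sites. For it 0 of the 8 members had a match, against 5.95% of 27025 genes and 5.20% of all promoter entries. A count of 0 among 8 genes is near those shares and sets the members apart in no way. A match of letters is a description of the sequence and does not show that a factor was bound.

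**Figure D1:**
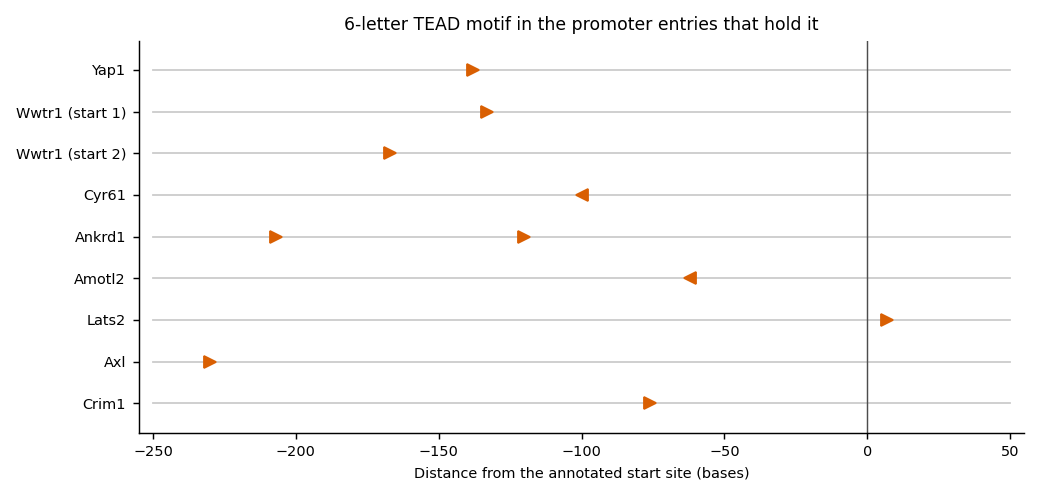
Position of the 6-letter TEAD element in the promoter entries of the members that hold it. The x axis gives the distance from the annotated start site in bases, each grey line is 1 entry of 300 bases, and triangles point right for the gene's strand and left for the opposite strand. All but the Lats2 site lie before the start site, from -233 in Axl to -65 in Amotl2.

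The libraries held 15842221 to 38202580 mapped reads, as recovered from the RPKM values. With 1 library per condition there is no spread between replicates and no p-value. Intervals below are 95% intervals for counting error only, and a gene was called higher or lower where its RPKM ratio was past 2-fold. Nfib was at 2.31 and 3.38 RPKM in shNFIB at days 0 and 5, against 9.92 and 17.0 in shControl, and Kmt2a was at 2.00 and 1.63 RPKM in shMLL1, against 5.17 and 5.27. Kdm4d lay at or below 0.235 RPKM in all 8 libraries, with 1 and 4 reads in shKDM4D and 2 and 13 in shControl, a log2 ratio of -1.86 (-3.94 to -0.17) at day 5 and too few reads to check the shKDM4D label at day 0. The summed RPKM of 8 adipocyte markers was 4.12 to 10.9 at day 0, and at day 5 it was 831 in shControl but 39.1 in shKDM4D, 12.5 in shMLL1 and 12.1 in shNFIB. The summed RPKM of 6 mesenchymal markers at days 0 and 5 was 2202 and 2459 in shControl and 2673 and 2805 in shKDM4D. It was 2270 and 2386 in shNFIB and 2084 and 1903 in shMLL1. Of these markers, Thy1 alone stood near 0 in some lines. Thy1 was at 25.0 and 22.6 RPKM in shControl and 11.8 and 11.1 in shMLL1, but at 0.139 or less in shKDM4D and shNFIB. Those lines thus differed from shControl in this surface marker on both days. Of the other cell types, 1 of 3 blood markers (Cd68), 1 of 4 epithelial markers (Cdh1) and 0 of 3 endothelial markers passed an RPKM of 1 in any library.

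The 3 factors were expressed in every library. In shControl neither Yap1, Wwtr1 nor Tead1 passed 2-fold between day 0 and day 5. Tead1 was the only factor with a call, as it fell in shNFIB and shMLL1.

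Yap1 (chr9:7931999-8004596, minus strand) encodes the YAP1 coactivator. At day 0 its level was 8.71, 8.59, 12.2 and 8.58 RPKM in shControl, shKDM4D, shNFIB and shMLL1. At day 5 it was 9.88, 8.81, 10.9 and 8.58 RPKM in the same lines. The highest 2 values were thus those of shNFIB, and the other 6 libraries lay between 8.58 and 9.88. It varied least of the 10 members, with a highest level 1.42 times the lowest. The day 5 over day 0 log2 ratio was 0.18 (0.09 to 0.27) in shControl and -0.16 (-0.26 to -0.07) in shNFIB, both well within 2-fold.

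Wwtr1 (chr3:57455649-57575910, minus strand) encodes TAZ. At day 0 it was at 23.4, 24.6, 32.3 and 30.9 RPKM in shControl, shKDM4D, shNFIB and shMLL1, and at day 5 at 21.8, 19.7, 21.0 and 20.0 RPKM. The lines differed at day 0, where shNFIB and shMLL1 were high, and came together at day 5, where each level overlapped the next in counting error. The day 5 over day 0 log2 ratios were -0.10 in shControl and -0.32 in shKDM4D, and -0.62 in shNFIB beside -0.63 in shMLL1. That of shKDM4D turned to 0.14 when levels were taken relative to Gapdh. Wwtr1 RNA exceeded Yap1 RNA per length in all 8 libraries, by 1.93 times (1.80 to 2.07) in shNFIB at day 5 up to 3.61 times (3.45 to 3.77) in shMLL1 at day 0, and within each line the ratio was lower at day 5 than at day 0.

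Tead1 (chr7:112679318-112906807, plus strand) encodes a DNA-binding partner of YAP1 and TAZ. Its levels in shControl, shKDM4D, shNFIB and shMLL1 at day 0 were 11.4, 13.8, 16.6 and 15.9 RPKM. At day 5 they were 10.7, 12.2, 7.74 and 7.88 RPKM. The shNFIB and shMLL1 lines held the 2 highest levels at day 0 and the 2 lowest at day 5, whereas shControl and shKDM4D stayed between them. Tead1 fell 2.15-fold in shNFIB (log2 ratio -1.10, -1.19 to -1.02) and 2.02-fold in shMLL1 (log2 ratio -1.01, -1.07 to -0.96), the latter with an interval that reaches inside 2-fold and a log2 ratio of -0.93 with a pseudocount of 1. In shControl and shKDM4D the log2 ratio was -0.10 and -0.18, and that of shKDM4D became 0.29 relative to Gapdh.

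**Figure D2:**
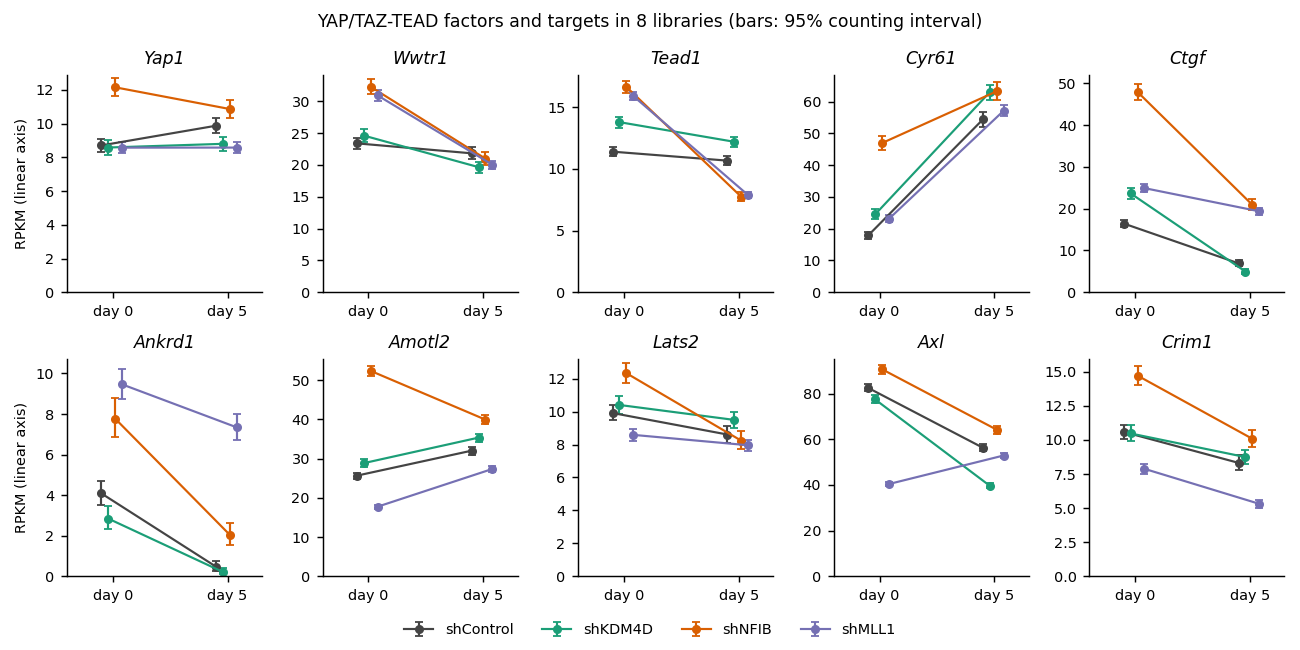
RPKM of each member (linear axis from 0) at day 0 and day 5 in the 4 lines, 1 library per point, with 95% counting intervals as bars. Cyr61 is higher at day 5 in all 4 lines, Ctgf and Ankrd1 are lower, and the orange shNFIB point at day 0 is the highest of all in 8 of the 10 panels.

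Cyr61 and Ctgf are the matricellular targets, secreted cysteine-rich proteins of the CCN family that bind integrins and are widely used as readouts of YAP/TAZ activity. They went opposite ways. From day 0 to day 5 Cyr61 rose past 2-fold in 3 of the 4 lines, and Ctgf fell past 2-fold in 3 of the 4.

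Cyr61 (now Ccn1, chr3:145646976-145649981, minus strand) was at 17.9, 24.5, 47.0 and 23.1 RPKM in shControl, shKDM4D, shNFIB and shMLL1 at day 0. At day 5 it was at 54.4, 63.0, 63.3 and 57.1 RPKM. All 4 levels at day 5 were above all 4 at day 0, and the lines were closer to each other at day 5. The rise was 3.05-fold in shControl, 2.57-fold in shKDM4D and 2.48-fold in shMLL1, with log2 intervals of 1.50 to 1.72, 1.26 to 1.47 and 1.23 to 1.39. In shNFIB the log2 ratio was 0.43 (0.34 to 0.52), which did not pass 2-fold and became -0.13 relative to Gapdh.

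Ctgf (now Ccn2, chr10:24595442-24598683, plus strand) was at 16.4, 23.6, 47.9 and 24.9 RPKM in shControl, shKDM4D, shNFIB and shMLL1 at day 0. At day 5 it was at 6.91, 4.95, 20.9 and 19.4 RPKM. Each line was lower at day 5, but shNFIB and shMLL1 at day 5 were still above shControl at day 0. Ctgf fell 2.38-fold in shControl, 4.78-fold in shKDM4D and 2.29-fold in shNFIB. In shMLL1 the log2 ratio was -0.36 (-0.45 to -0.28), within 2-fold.

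At day 0 the levels of the pair were close in every line, as the RPKM of Cyr61 over that of Ctgf was 1.09 (0.999 to 1.18), 1.04 (0.953 to 1.13), 0.980 (0.922 to 1.04) and 0.927 (0.872 to 0.984) in shControl, shKDM4D, shNFIB and shMLL1. At day 5 the same ratio was 7.88 (7.06 to 8.81), 12.7 (11.3 to 14.4), 3.03 (2.80 to 3.27) and 2.95 (2.80 to 3.11). The pair thus parted most in shKDM4D, then in shControl, and by nearly the same ratio in shNFIB and shMLL1. The adipocyte marker sums at day 5 ran in another order, 831 in shControl, 39.1 in shKDM4D, 12.5 in shMLL1 and 12.1 in shNFIB. The part of adipocyte RNA in the ratio was not tested. In bulk RNA fewer cells of a type and less RNA per cell cannot be told apart. The ratio lies within a library and so does not depend on a scaling by a constant factor per library, though quantile normalization can change it. The ratio was chosen after its values were seen.

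**Figure D3:**
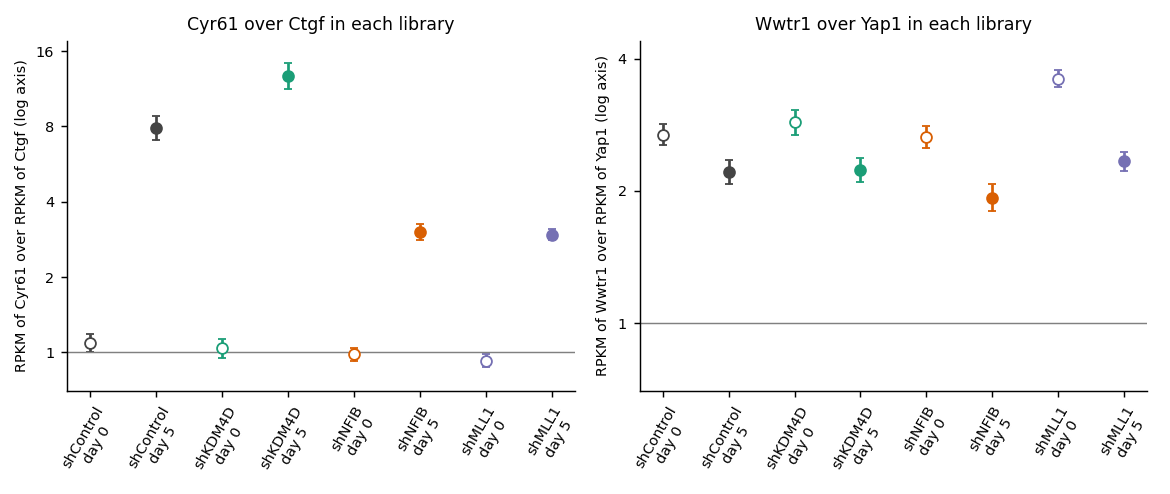
RPKM of Cyr61 over Ctgf (left) and of Wwtr1 over Yap1 (right) in each of the 8 libraries on a log axis, with open points for day 0, filled points for day 5 and 95% counting intervals as bars. Cyr61 and Ctgf lie near a ratio of 1 in all 4 lines at day 0 and between 2.95 and 12.7 at day 5.

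Ankrd1 (chr19:36111961-36120099, minus strand) encodes an ankyrin repeat protein of striated muscle that is also a strong YAP/TAZ target in fibroblasts. It showed the widest range of the members, 45.1 times from lowest to highest. At day 0 it was at 4.08 (192 reads), 2.84 (98), 7.77 (256) and 9.46 RPKM (638) in shControl, shKDM4D, shNFIB and shMLL1. At day 5 it was at 0.469 RPKM (16 reads), 0.210 (8), 2.04 (57) and 7.34 (494). It was nearly lost from shControl and shKDM4D but stayed above the shControl day 0 level in shMLL1. Ankrd1 fell 8.71-fold in shControl (log2 ratio -3.12, -3.96 to -2.39), 13.6-fold in shKDM4D (-3.76, -5.01 to -2.73) and 3.81-fold in shNFIB (-1.93, -2.37 to -1.51). In shMLL1 the log2 ratio was -0.37 (-0.54 to -0.19), within 2-fold. With a pseudocount of 1 the log2 ratios of shControl and shKDM4D became -1.79 and -1.67.

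Of the 4 smooth muscle markers, Acta2 and Tagln were above an RPKM of 1 at day 0, and Cnn1 and Myh11 stayed below it in all 8 libraries. Acta2 went from 1280 RPKM at day 0 to 478 at day 5 in shControl, from 1275 to 673 in shKDM4D, from 1246 to 878 in shNFIB and from 845 to 289 in shMLL1. Tagln, at a far lower level, went from 7.19 to 0.416, from 5.56 to 0.233, from 5.07 to 0.349 and from 2.17 to 0.251 RPKM in the same order of lines. The sum of the 4, nearly all of it Acta2, was 848 to 1287 RPKM at day 0 and 290 to 879 at day 5. Acta2 and Tagln were lower at day 5 in shMLL1 as well, where Ctgf and Ankrd1 were within 2-fold, and their part in the values of both genes was not tested.

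Amotl2 and Lats2 are feedback targets, an angiomotin-like scaffold that binds YAP1 and TAZ and a kinase that phosphorylates them. Neither passed 2-fold with time in any line. Amotl2 (chr9:102716672-102733418, plus strand) was at 25.6, 28.8, 52.3 and 17.7 RPKM in shControl, shKDM4D, shNFIB and shMLL1 at day 0, and at 32.0, 35.3, 39.9 and 27.3 RPKM at day 5. Its day 5 over day 0 log2 ratio was positive in shControl (0.32), shKDM4D (0.29) and shMLL1 (0.62) and negative in shNFIB (-0.39), which started highest. Lats2 (chr14:57689662-57758388, minus strand) was at 9.91, 10.4, 12.3 and 8.59 RPKM at day 0 and at 8.61, 9.50, 8.24 and 7.96 RPKM at day 5 in shControl, shKDM4D, shNFIB and shMLL1. Only shNFIB at day 0 stood clear of its neighbour in counting error, as the other 7 libraries formed a chain of overlapping intervals from 10.4 down to 7.96 RPKM. The log2 ratios with time were between -0.58 in shNFIB and -0.11 in shMLL1, and that of shKDM4D turned from -0.13 to 0.34 relative to Gapdh.

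Axl, a receptor tyrosine kinase for GAS6, had the highest RPKM of the members in all 4 lines at day 0. Axl (chr7:25757273-25788705, minus strand) was at 82.5, 77.5, 90.7 and 40.4 RPKM in shControl, shKDM4D, shNFIB and shMLL1 at day 0, and at 56.3, 39.6, 64.2 and 52.9 RPKM at day 5. The shMLL1 line was lowest at day 0 and the only one with a higher level at day 5. Its log2 ratio with time was 0.39 (0.35 to 0.43), against -0.55 in shControl, -0.97 in shKDM4D and -0.50 in shNFIB, none past 2-fold. The value of shKDM4D was just past 2-fold under quantile normalization and under median-of-ratios scaling (-1.01 in both).

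Crim1 encodes a membrane protein with cysteine-rich repeats that binds BMP ligands. Crim1 (chr17:78200248-78376592, plus strand) was at 10.6, 10.5, 14.7 and 7.88 RPKM in shControl, shKDM4D, shNFIB and shMLL1 at day 0, and at 8.32, 8.74, 10.1 and 5.32 RPKM at day 5. The shMLL1 line was lowest on both days and shNFIB highest on both. The log2 ratios with time ran from -0.57 in shMLL1 to -0.26 in shKDM4D, and that of shKDM4D became 0.21 relative to Gapdh.

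In shControl at day 0 the order of levels per length was Axl, Amotl2, Wwtr1, Cyr61, Ctgf, Tead1, Crim1, Lats2, Yap1 and Ankrd1, from 82.5 down to 4.08 RPKM. Cyr61 and Ctgf overlapped in counting error, as did Tead1 with Crim1 and Crim1 with Lats2, and the other neighbours were apart.

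Over all members, the count past 2-fold from day 0 to day 5 in shControl was 1 higher (Cyr61) and 2 lower (Ctgf, Ankrd1) of 10, where 13.0% of the 11513 expressed genes were higher and 8.56% lower. In shKDM4D the same 3 genes were called in the same directions, with 12.8% of expressed genes higher and 8.44% lower. In shNFIB none was higher and 3 were lower (Tead1, Ctgf, Ankrd1), with 12.6% and 4.96% over all expressed genes, and relative to Gapdh 7 members were lower past 2-fold, as were 2014 of the 11513 expressed genes (840 higher). In shMLL1 1 was higher (Cyr61) and 1 lower (Tead1), with 20.4% and 6.89%. The median log2 ratio of the 10 members was -0.15, -0.22, -0.56 and -0.24 in shControl, shKDM4D, shNFIB and shMLL1, beside 0.03, 0.03, 0.10 and 0.17 over all expressed genes.

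**Figure D4:**
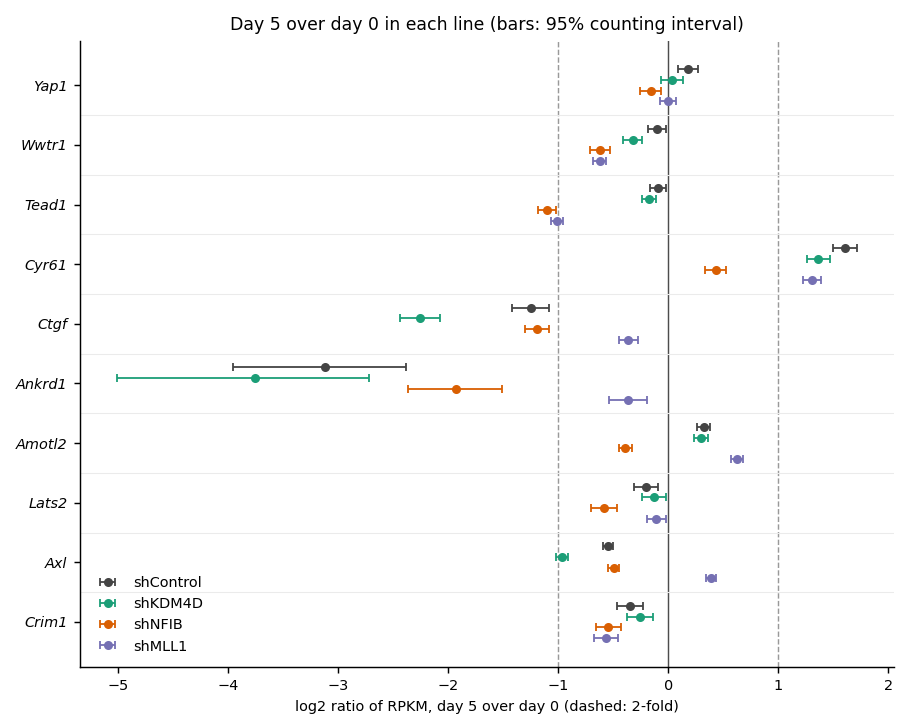
Log2 ratio of RPKM at day 5 over day 0 for each member in the 4 lines, with 95% counting intervals as bars, a solid line at no change and dashed lines at 2-fold. Cyr61 lies right of the 2-fold line in all lines but shNFIB, Ctgf and Ankrd1 lie left of it in all but shMLL1, and Tead1 lies left of it in shNFIB and shMLL1.

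The change with time was then compared between each knockdown line and shControl, as the difference of the log2 ratios. A positive difference means a larger rise or smaller drop in the knockdown line. The interval given is the widest that the 2 counting intervals allow, and no test of the difference was possible. The 3 comparisons share the shControl libraries.

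In shKDM4D 1 of 10 members differed by more than 2-fold, against 5.18% of genes with reads in all 4 libraries. This was Ctgf, with a difference of -1.01 (-1.36 to -0.66), as its level dropped further in shKDM4D, and it was within 2-fold with either pseudocount, under quantile normalization and relative to Gapdh. In shNFIB 3 of 10 differed, against 10.2% of all genes. They were Tead1 (-1.01, -1.16 to -0.86), Cyr61 (-1.18, -1.38 to -0.97) and Ankrd1 (1.19, 0.01 to 2.45). Each of these intervals reaches inside 2-fold, and the count in shNFIB was 1 with either pseudocount. In shMLL1 1 of 10 differed, against 12.0%, and this was Ankrd1 with a difference of 2.76 (1.85 to 3.76). Its interval lies wholly past 2-fold.

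Between lines at day 0, before induction, the shNFIB library stood out. All 10 members had a higher level in shNFIB than in shControl, with log2 ratios from 0.14 (Axl) to 1.54 (Ctgf) and a median of 0.51, beside 0.03 over all expressed genes. 3 of 10 passed 2-fold, where 2.95% of expressed genes were higher and 6.05% lower: Ctgf was 2.92-fold higher (log2 interval 1.45 to 1.64), Cyr61 2.63-fold (1.28 to 1.51) and Amotl2 2.04-fold (0.97 to 1.09). The factors Yap1, Wwtr1 and Tead1 were at log2 ratios of 0.48, 0.46 and 0.55, within 2-fold. Relative to Gapdh, which moves every gene by 0.64 here, 8 of the 10 members were higher past 2-fold, as were 2272 of the 11513 expressed genes (346 lower).

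Of the 10 members, 8 had their highest level of all 8 libraries in shNFIB at day 0, where 15.1% of expressed genes had theirs. For Wwtr1 and Tead1 that level overlapped the one of shMLL1 at day 0 in counting error. The exceptions were Cyr61, highest in shNFIB at day 5, and Ankrd1, highest in shMLL1 at day 0. These overlapped the next level too, in shKDM4D at day 5 for Cyr61 and in shNFIB at day 0 for Ankrd1. The count was 7 under quantile normalization and 6 under median-of-ratios scaling. Gapdh was lowest in this library, at 159 RPKM against 235 to 326 in the other 7, and relative to Gapdh all 10 members and 63.9% of expressed genes were highest here. This count was chosen after its values were seen.

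In shMLL1 at day 0 Ankrd1 was 2.32-fold higher than in shControl (log2 ratio 1.21, 0.98 to 1.45) and Axl 2.04-fold lower (-1.03, -1.07 to -0.99). The call on Axl was lost under median-of-ratios scaling (-0.94). Those 2 of 10 stand beside 1.67% of expressed genes higher and 7.43% lower. The median over the members was 0.17, beside -0.07 over all expressed genes. Tead1 (0.48), Wwtr1 (0.40), Cyr61 (0.37) and Ctgf (0.60) had log2 ratios above 0 and Amotl2 (-0.53), Crim1 (-0.43) and Lats2 (-0.21) below 0, all within 2-fold.

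In shKDM4D at day 0 no member passed 2-fold, where 1.98% of expressed genes were higher and 4.26% lower. The log2 ratios ran from -0.52 (Ankrd1) to 0.52 (Ctgf), with a median of 0.07 beside -0.0027 over all expressed genes. Relative to Gapdh, Tead1 turned from 0.28 to -0.12 and Amotl2 from 0.17 to -0.23.

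At day 5 the calls were limited to Ctgf and Ankrd1. In shMLL1 Ankrd1 was 15.7-fold higher than in shControl (log2 ratio 3.97, 3.25 to 4.79, and 2.51 with a pseudocount of 1) and Ctgf 2.80-fold higher (1.49, 1.33 to 1.65). These 2 of 10 compare with 5.25% of expressed genes higher and 4.02% lower. In shNFIB Ankrd1 was 4.35-fold higher (2.12, 1.30 to 3.02, and 1.05 with a pseudocount of 1) and Ctgf 3.03-fold higher (1.60, 1.43 to 1.77), with 5.54% of expressed genes higher and 5.67% lower. In shKDM4D Ankrd1 was 2.24-fold lower, on 8 reads against 16, with a log2 interval of -2.59 to 0.15 that covers no difference and a ratio within 2-fold under either pseudocount, and it was the only call beside 1.88% of expressed genes higher and 4.57% lower.

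The member medians at day 5 were -0.12 in shMLL1, 0.20 in shNFIB and -0.04 in shKDM4D, beside 0.07, 0.09 and 0.01 over all expressed genes. Cyr61, which had differed between lines at day 0, was within a log2 ratio of 0.22 of shControl in each knockdown line at day 5. Yap1, Wwtr1 and Lats2 were also within 0.21 of shControl in either direction. Tead1 was at -0.46 in shNFIB and -0.44 in shMLL1 but at 0.19 in shKDM4D.

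**Figure D5:**
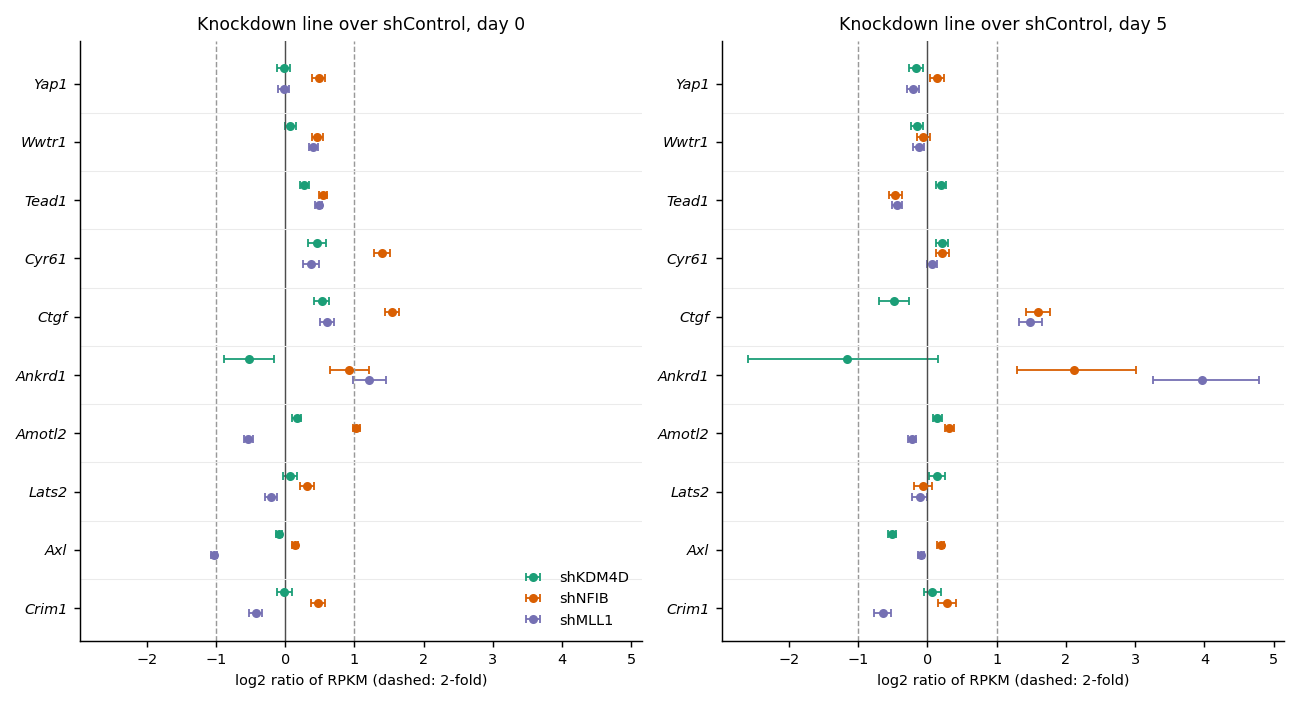
Log2 ratio of RPKM in each knockdown line over shControl at day 0 (left) and day 5 (right), with 95% counting intervals as bars, a solid line at no difference and dashed lines at 2-fold. At day 0 the orange shNFIB points all lie right of 0, and at day 5 the points past 2-fold belong to Ctgf and Ankrd1.

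Set against each other, the knockdown lines differed most in Ankrd1 and Ctgf at day 5. Ankrd1 in shMLL1 was above shNFIB by a log2 ratio of 1.85 (1.45 to 2.27) and above shKDM4D by 5.13 (4.14 to 6.35). The latter ratio rests on 8 reads (0.210 RPKM) in shKDM4D, below an RPKM of 1, and was taken without a pseudocount. Ankrd1 in shNFIB was above shKDM4D by 3.28 (2.21 to 4.56), on the same 8 reads in shKDM4D. Ctgf in shMLL1 over shNFIB had a log2 ratio of -0.11 (-0.22 to 0.0007). It was above shKDM4D by 1.97 (1.79 to 2.15) in shMLL1 and by 2.08 (1.89 to 2.27) in shNFIB. At day 0 Ankrd1 was above shKDM4D by 1.74 (1.43 to 2.06) in shMLL1 and by 1.45 (1.11 to 1.80) in shNFIB. On that day Amotl2 in shMLL1 was below shNFIB by 1.56 on the log2 scale (-1.62 to -1.50) and Axl by 1.17 (-1.21 to -1.12).

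The rest of the pathway was read from 3 lists of 43 genes. Among 22 Hippo kinases and scaffolds, 21 were expressed and most stayed within 2-fold from day 0 to day 5. In shControl 1 rose and 3 fell, in shKDM4D 1 rose and none fell, and in shNFIB and shMLL1 1 rose and 2 fell. The list medians were -0.07, 0.03, -0.22 and -0.31 in the 4 lines, to be read beside those over all expressed genes given above. Against shControl, at most 1 gene of this list was higher and at most 2 were lower in any knockdown line on either day. The counts of this list stand beside the shares over all expressed genes given above for each comparison. The gene that rose was each time Fat4, a giant protocadherin upstream of Hippo. It went from 2.09 to 14.2 RPKM in shControl, from 3.05 to 22.0 in shKDM4D, from 2.18 to 6.78 in shNFIB and from 1.88 to 5.72 in shMLL1. At day 5 Fat4 was lower than in shControl in shNFIB (log2 ratio -1.06, -1.14 to -0.99) and shMLL1 (-1.31, -1.37 to -1.25). Wwc1, chosen after its values were seen, was at 0.662 RPKM (52 reads) in shNFIB at day 5, against 1.63 in shControl. It was already lower in shNFIB at day 0, at 1.02 against 3.81 RPKM. In shKDM4D at day 5 Wwc1 was higher past 2-fold, at 3.84 RPKM.

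Among the 6 other TEAD and Vgll factors, 5 were expressed, and Vgll2 was not. With time 1 rose and 1 fell in shControl and in shKDM4D, 1 fell in shNFIB, and 2 rose and 1 fell in shMLL1, with list medians of -0.44, -0.14, 0.17 and -0.07. So few genes are to be read beside the shares and medians over all expressed genes given above. Tead4, a paralogue of Tead1, fell in all 4 lines, from 4.39 to 2.08 RPKM in shControl, from 4.04 to 1.52 in shKDM4D, from 3.75 to 1.05 in shNFIB and from 5.78 to 2.16 in shMLL1. Vgll4, which competes with YAP1 and TAZ for TEAD, rose past 2-fold in shControl, shKDM4D and shMLL1 and had a log2 ratio of 0.40 (0.16 to 0.63) in shNFIB, within 2-fold. It was chosen after its values were seen, and the difference between lines was not tested. Its RPKM went from 1.72 to 4.80, from 2.05 to 4.81, from 1.84 to 4.26 and, in shNFIB, from 2.83 to 3.73.

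Among 15 further target genes of a signature known from the literature, 14 were expressed, and Nt5e was not. In shControl 5 were higher and 3 lower past 2-fold, in shKDM4D 4 and 3, in shNFIB 3 and 2, and in shMLL1 6 and 2. The list medians were 0.29, 0.30, 0.04 and 0.74. Against shControl at day 0, 1 was higher and none lower in shKDM4D, 3 were higher and 2 lower in shNFIB, and none was higher and 3 were lower in shMLL1. At day 5, 3 were higher and none lower in shKDM4D, 1 was higher and 1 lower in shNFIB, and 2 were higher and none lower in shMLL1. These counts are to be read beside the shares over all expressed genes given above for each comparison.

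The genes of that list past 2-fold in the same direction in all 4 lines were Fjx1, Tgfb2 and Dock5. Fjx1, a secreted Golgi protein that acts on Fat and Dachsous cadherins in flies, went from 1.02 to 3.12 RPKM in shControl, from 1.80 to 6.35 in shKDM4D, from 2.53 to 5.28 in shNFIB and from 1.36 to 9.24 in shMLL1. Tgfb2, a TGF-beta ligand, went from 2.92 to 6.81, from 4.89 to 13.8, from 9.45 to 19.1 and from 1.62 to 5.09 RPKM in the same order of lines. Dock5, a guanine nucleotide exchange factor for Rac, fell from 12.7 to 4.96, from 11.01 to 4.36, from 12.0 to 4.01 and from 10.9 to 3.31 RPKM. In shNFIB the rises of Fjx1 and Tgfb2 were only just past 2-fold. Median-of-ratios scaling, which moves each log2 ratio there by -0.11, takes both within 2-fold, as does Gapdh scaling (-0.56). Gapdh scaling also takes the fall of Dock5 within 2-fold in shKDM4D, where it moves each log2 ratio by 0.47.

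Ccdc80, which encodes a secreted matrix protein, was past 2-fold from shControl at day 0 in all 3 knockdown lines, higher in shKDM4D (log2 ratio 1.32) and shNFIB (1.68) and lower in shMLL1 (-1.09). Median-of-ratios scaling moves the ratio of shMLL1 by 0.09, to just within 2-fold. Gapdh scaling moves that of shKDM4D by -0.40, also to within 2-fold. It was at 24.8, 62.0, 79.3 and 11.6 RPKM in shControl, shKDM4D, shNFIB and shMLL1 at day 0, and at 89.1, 73.8, 134 and 77.5 RPKM at day 5.

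Gadd45a, a stress-inducible growth arrest gene of the same list, was past 2-fold with time in all 4 lines but in opposite directions, and was chosen after its values were seen. It was at 24.9, 23.4, 4.77 and 6.25 RPKM in shControl, shKDM4D, shNFIB and shMLL1 at day 0, and at 11.7, 9.57, 10.3 and 23.4 RPKM at day 5. It fell in shControl and shKDM4D and rose in shNFIB and shMLL1. Igfbp3, an IGF-binding protein chosen in the same way, had 1 read in each shNFIB library (0.017 and 0.020 RPKM), against 0.818 to 17.6 RPKM in the other 6 libraries.

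As a description over 8 libraries that share lines and days, the genes with the pattern closest to Cyr61 on log2(RPKM + 0.1) were Nkapd1 (Pearson r = 0.980), Sh3bgrl (0.979) and Zfp445 (0.977), among 6630 genes with a mean RPKM of at least 5. Closest to Ctgf were Arih2 (0.979), Ier5 (0.977) and Cacul1 (0.969). Cyr61 and Ctgf themselves had r = -0.33, and of the members at that mean level, all but Ankrd1, the closest to Cyr61 was Amotl2 (0.62) and to Ctgf was Wwtr1 (0.72).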

How the data were processed

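The authors prepared stranded RNA-seq libraries from total RNA, aligned them in CLC Genomics Workbench 11.0.1 to the GRCm38 build (a cost of 2 per mismatch and 3 per insertion or deletion, with fractions of 0.8 for length and similarity) and deposited 1 table of RPKM per library. RPKM depends on the total of each library, so a change in a few abundant genes moves the rest. Mapped reads were recovered from the steps of the RPKM values with GENCODE M21 exon lengths (40823 symbols matched). 96.2% to 96.6% of values between 1 and 1000 reads came out whole within 0.02. For Ankrd1 the annotated length of 2886 bases gave no whole reads, and 1765, found from the values, was used. Pparg, Cebpa and Kmt2a gave whole reads in some libraries only and have no interval. Cyr61 and Ctgf were matched to Ccn1 and Ccn2 through RefSeq synonyms.

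Ratios were taken on RPKM without a pseudocount, and a gene with an RPKM above 1 in at least 1 library was called past 2-fold. No test was run, as each condition has 1 library. Intervals for ratios are exact (Clopper-Pearson on the reads of both libraries, conditional on their sum) and those for levels are exact Poisson intervals. A count test on the recovered reads needs replicates and was not run. The functions were tested on simulated data. Named genes are all members, list genes past 2-fold in all 4 lines with time or in all 3 knockdown lines at 1 day (at most 4 a list, by mean log2 ratio), the targeted genes, and the 3 genes closest to Cyr61 and to Ctgf. The members and lists were chosen with earlier results of these data known. Alternatives were pseudocounts of 0.1 and 1, quantile, median-of-ratios and Gapdh scaling, an RPKM above 2, no filter, protein coding genes alone, and calls only where the whole interval is past 2-fold. Those for the change between lines and for the count of highest levels were added after seeing the data. Python 3.11.15, numpy 2.4.6, pandas 2.3.3, scipy 1.17.1 and matplotlib 3.10.9 were used.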

Additional observations from a re-analysis of the deposited data

Results flagged for a closer look

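In 7 instances a member had log2 ratios of opposite sign under the same contrast, each with a counting interval that excludes 0. No share over all expressed genes stands beside this count, so it is not read as particular to the members. Counting intervals are narrow at these read numbers, so small ratios can exclude 0. With 1 library per condition none of these differences was tested, and all values lie within 2-fold. From day 0 to day 5, Yap1 was at -0.16 in shNFIB and 0.18 in shControl, Amotl2 at -0.39 in shNFIB and 0.32 in shControl, and Axl at 0.39 in shMLL1 and -0.55 in shControl. Against shControl, Tead1 was at 0.55 in shNFIB at day 0 and -0.46 at day 5, and in shMLL1 at 0.48 and -0.44. Wwtr1 in shMLL1 was at 0.40 at day 0 and -0.12 at day 5, and Ctgf in shKDM4D at 0.52 and -0.48.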

How the results depend on the processing

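No called log2 ratio of a member changed sign under any of the 5 other scalings and pseudocounts, and most of the 21 calls held: 20 were still past 2-fold with a pseudocount of 0.1, under quantile normalization and under median-of-ratios scaling, 19 with a pseudocount of 1 and 21 relative to Gapdh. The calls lost were Tead1 with time in shMLL1 (-0.93 with a pseudocount of 1), Axl in shMLL1 at day 0 (-0.94 under median-of-ratios scaling) and Ankrd1 in shKDM4D at day 5 (-0.88, -0.28 and -0.96 with pseudocounts of 0.1 and 1 and under quantile normalization).

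Relative to Gapdh the number of members past 2-fold went from 3 to 7 in shNFIB with time and from 3 to 8 in shNFIB at day 0. For shMLL1 with time it went from 2 to 1 with a pseudocount of 1 and where the whole interval had to pass 2-fold. For shMLL1 at day 0 it went from 2 to 1 under median-of-ratios scaling and to 0 for the whole interval. For shKDM4D at day 5 the 1 call became 0 with either pseudocount, under quantile normalization and for the whole interval. The difference in change with time past 2-fold in shKDM4D (1 member) became 0 with either pseudocount, under quantile normalization and relative to Gapdh. In shNFIB 3 became 1 with either pseudocount. In shMLL1 1 became 2 under quantile, median-of-ratios and Gapdh scaling. The cause was not tested beyond what each setting does by construction.

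Gapdh scaling moved all log2 ratios by 0.64 in shNFIB at day 0, by -0.56 in shNFIB with time and by 0.47 in shKDM4D with time, and median-of-ratios scaling by -0.21 in shMLL1 with time and -0.11 in shNFIB with time. Over all expressed genes, the share past 2-fold in the 10 comparisons was 6.24% to 27.3%, and 1.32% to 15.9% with a pseudocount of 1, 4.26% to 25.6% with one of 0.1 and 10.6% to 21.8% with no filter. The percent of those calls that were higher moved most relative to Gapdh, from 32.8 to 86.8 in shNFIB at day 0, from 71.8 to 29.4 in shNFIB with time, from 60.2 to 84.6 in shKDM4D with time, from 31.8 to 10.7 in shKDM4D at day 0 and from 56.6 to 31.5 in shMLL1 at day 5. Under quantile normalization it went from 71.8 to 56.2 in shNFIB with time, from 74.7 to 52.8 in shMLL1 with time (60.3 under median-of-ratios scaling) and from 18.3 to 28.7 in shMLL1 at day 0. Filtering at an RPKM above 2 or not at all moved no member count by more than 1.5 times. No paired analysis was possible because each comparison sets 1 library against 1, and for the same reason no replicate could be left out. A fit of day over all 8 libraries with line as a block would take the 4 lines as replicates of a day and was not run. Depth limits Ankrd1 most, with 8 and 16 reads in shKDM4D and shControl at day 5.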
